A study of Mus musculus with 22 samples.

Results

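Rpp40, Slc35f2, Dmac1 and Cdpf1 are 4 of the 18194 genes named on the arrays, and 6 of the 45101 probe sets measure them. They were chosen by their measured values, because their difference between Trim24-/- and wild-type (WT) liver was larger at 14 than at 5 weeks of age. The values of those comparisons are therefore given as a description, with no test. Liver RNA of 22 mice was hybridised to Affymetrix one-colour arrays, 1 array per animal. At 5 weeks there were 4 Trim24-/- Rara+/- mice, which lack Trim24 and keep 1 intact Rara allele, 4 Trim24-/- mice and 4 WT mice. At 14 weeks there were 5 Trim24-/- and 5 WT mice, with no Trim24-/- Rara+/- group. All groups came from an intercross of double heterozygotes with mixed C57BL/6 and 129/Sv ancestry. The allele is described as a gene disruption with no Cre or tissue promoter named. Whole liver was measured, so liver cell types are not told apart. The Rara allele was removed only where Trim24 was already lost, so no group shows its effect alone. Each replicate carries its own animal number, so the spread within a group is that between animals.

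Trim24 is a nuclear co-regulator of the tripartite motif family that binds nuclear receptors, among them the retinoic acid receptor alpha encoded by Rara, and chromatin. In mouse liver it is known as a suppressor of hepatocellular tumours. The 4 genes have unrelated textbook roles. Rpp40 encodes a protein subunit of RNase P, the ribonucleoprotein that cuts the leader from tRNA precursors, and of the related RNase MRP, which cuts ribosomal RNA precursors. Slc35f2 encodes a membrane transporter of the SLC35 family, known in human cells for taking up the drug YM155 and the tRNA base precursor queuine. Dmac1, known in human cells, encodes a mitochondrial protein needed to assemble the distal membrane arm of complex I, the entry point of the respiratory chain. Cdpf1 is named for a cysteine-rich domain with a DPF motif.

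The promoters are printed so that the control regions of genes that differed between the same groups can be set side by side. Each window holds 250 bases before and 50 after the start of the gene, taken from RefSeq on build GRCm38.p6 and written on the strand of the gene, and all 4 genes matched by symbol. Capitals mark the only matches to the motifs searched.
Rpp40 promoter (chr13:35906298-35906597, minus strand): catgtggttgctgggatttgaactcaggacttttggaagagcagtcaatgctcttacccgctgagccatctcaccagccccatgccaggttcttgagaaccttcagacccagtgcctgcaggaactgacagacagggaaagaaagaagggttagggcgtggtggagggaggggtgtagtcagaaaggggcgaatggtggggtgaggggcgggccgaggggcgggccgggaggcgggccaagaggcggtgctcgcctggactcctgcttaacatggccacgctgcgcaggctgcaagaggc
Slc35f2 promoter (chr9:53771285-53771584, plus strand): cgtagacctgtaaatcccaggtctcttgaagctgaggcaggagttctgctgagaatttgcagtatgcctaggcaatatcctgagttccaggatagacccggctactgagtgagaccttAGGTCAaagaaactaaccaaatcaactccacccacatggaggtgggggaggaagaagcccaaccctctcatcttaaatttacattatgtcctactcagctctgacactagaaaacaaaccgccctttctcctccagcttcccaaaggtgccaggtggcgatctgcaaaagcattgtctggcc
Dmac1 promoter (chr4:75278243-75278542, minus strand): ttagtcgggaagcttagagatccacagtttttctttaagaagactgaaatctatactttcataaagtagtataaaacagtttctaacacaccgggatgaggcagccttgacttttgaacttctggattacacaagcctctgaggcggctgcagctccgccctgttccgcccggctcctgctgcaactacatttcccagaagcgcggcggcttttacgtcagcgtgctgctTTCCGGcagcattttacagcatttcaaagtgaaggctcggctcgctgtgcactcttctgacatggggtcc
Cdpf1 promoter (chr15:85811648-85811947, minus strand): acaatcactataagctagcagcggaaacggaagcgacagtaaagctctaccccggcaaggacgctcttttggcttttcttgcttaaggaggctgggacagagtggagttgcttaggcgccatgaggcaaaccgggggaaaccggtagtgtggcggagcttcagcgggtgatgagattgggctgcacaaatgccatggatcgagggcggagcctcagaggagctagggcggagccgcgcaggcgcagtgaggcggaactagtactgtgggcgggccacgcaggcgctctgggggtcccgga
The 4 genes lie on 4 different chromosomes, none of them the chromosome of Trim24 (6) or Rara (11).

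Both strands were searched for the nuclear receptor core AGGTCA, pairs of that core spaced by 5 or by 2 bases, a pair of GAAA spaced by 2 bases (the core of interferon response elements), the E-box CACGTG, the ETS core CCGGAA and the YY1 core AAGATGGC. The pairs contain the single core, so those searches overlap. The Slc35f2 window held 1 nuclear receptor core, at its bases 119 to 124, and 16.3% of 32851 mouse promoter windows held one. The Dmac1 window held 1 ETS core on the opposite strand, at its bases 231 to 236, and 14.9% of windows held one. No searched motif was found in the Rpp40 and Cdpf1 windows, and no motif was shared by 2 of the 4 genes. Over all windows the other shares were 3.44% for the interferon core, 7.15% for the E-box, 2.75% for the YY1 core and 0.00913% for each spaced pair of AGGTCA. The G and C content was 61.3% for Rpp40, 49.3% for Slc35f2, 49.7% for Dmac1 and 60.7% for Cdpf1, against a median of 52.7%.

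The signals are linear and had been scaled to a common trimmed mean on every array. Differences are on the log2(signal + 16) scale, which understates changes of dim probe sets, and ± gives the SE of a difference or the SD of signals. The median signal per array was 12.6 to 16.1 at 5 weeks and 19.7 to 25.9 at 14 weeks. Differences are therefore taken from WT of the same age, and signals set side by side across ages carry this shift. Xist, transcribed from the inactive X chromosome, read 948 to 2169 in the 12 livers of 5 weeks and 13.4 to 44.5 in the 10 livers of 14 weeks. The Y-linked Eif2s3y read 0.350 to 6.59 at 5 weeks and 245 to 344 at 14 weeks. Both patterns held in every mutant and every WT liver of an age, so age and the pattern of these sex-linked genes cannot be told apart in any difference between 5 and 14 weeks. Trim24 itself averaged 450.4 ± 34.1 in Trim24-/- Rara+/-, 363 ± 84.7 in Trim24-/- and 317 ± 111 in WT livers at 5 weeks (n = 4 each), and 235 ± 59.3 in Trim24-/- against 168 ± 24.2 in WT livers at 14 weeks (n = 5 each). These are signals of the brightest Trim24 probe set, the only one examined, and were thus not lower in the animals labelled Trim24-/-. The sources used here do not say which part of the gene this probe set covers relative to the disruption, so the signal is no check of the labels. Rara averaged 18.2 ± 9.97 in Trim24-/- Rara+/-, 13.7 ± 8.45 in Trim24-/- and 12.3 ± 11.7 in WT livers at 5 weeks, too dim to check the second allele. Hepatocyte markers were bright on every array, with summed signals of 48248 to 76562 over 8 genes, as the tissue label implies.

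Rpp40 had the largest difference of the 4 genes. Its brighter probe set, 1443750_s_at, read 1349, 1102, 1187, 1205 and 1155 in the Trim24-/- livers at 14 weeks. The WT livers of that age read 183, 159, 126, 136 and 133. The lowest Trim24-/- liver was several times brighter than the highest WT liver. The means of 1199.5 ± 92.3 in Trim24-/- and 147 ± 23.6 in WT livers (n = 5 each) stood in a ratio of 8.14, and the log2 difference was 2.90 ± 0.12. By that difference Rpp40 ranked 3 from the top among all 18194 genes. The genes on either side of it in that order were Obp2a at 5.40 and Resf1 at 2.43.

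At 5 weeks the same probe set read 199.6, 217, 157 and 173 in Trim24-/- Rara+/- livers. The Trim24-/- livers read 156, 202, 219.7 and 98.8, and the WT livers 83.1, 72.8, 75.9 and 82.8. Every mutant liver lay above every WT liver, and the 2 mutant groups overlapped. The Trim24-/- liver at 98.8, animal 37, was the closest to WT. The ratio of means to WT was 2.37 for Trim24-/- Rara+/- and 2.15 for Trim24-/- livers, and the log2 difference of Trim24-/- from WT was 0.92 ± 0.19. The difference at 14 weeks exceeded that at 5 weeks by 1.99 ± 0.23.

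The second Rpp40 probe set, 1424792_at, was dimmer and gave the same order of groups at 14 weeks. It read 539.6, 515, 462.5, 517 and 453 in Trim24-/- and 75.9, 82.3, 63.3, 31.4 and 44.5 in WT livers at 14 weeks, again with no overlap. The ratio of means was 8.36, and the log2 difference was 2.81 ± 0.19. At 5 weeks it averaged 83.2 ± 9.0 in Trim24-/- Rara+/-, 75.9 ± 19.6 in Trim24-/- and 42.3 ± 12.2 in WT livers (n = 4 each). The Trim24-/- and WT livers overlapped there narrowly, at 54.2 in the lowest Trim24-/- and 54.4 in the highest WT liver. The brighter probe set read 2.5 times the dimmer one in the median Trim24-/- liver and 2.41 times in the median WT liver at 14 weeks. The probe sets measure the same RNA and are not replicates.

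**Figure D1:**
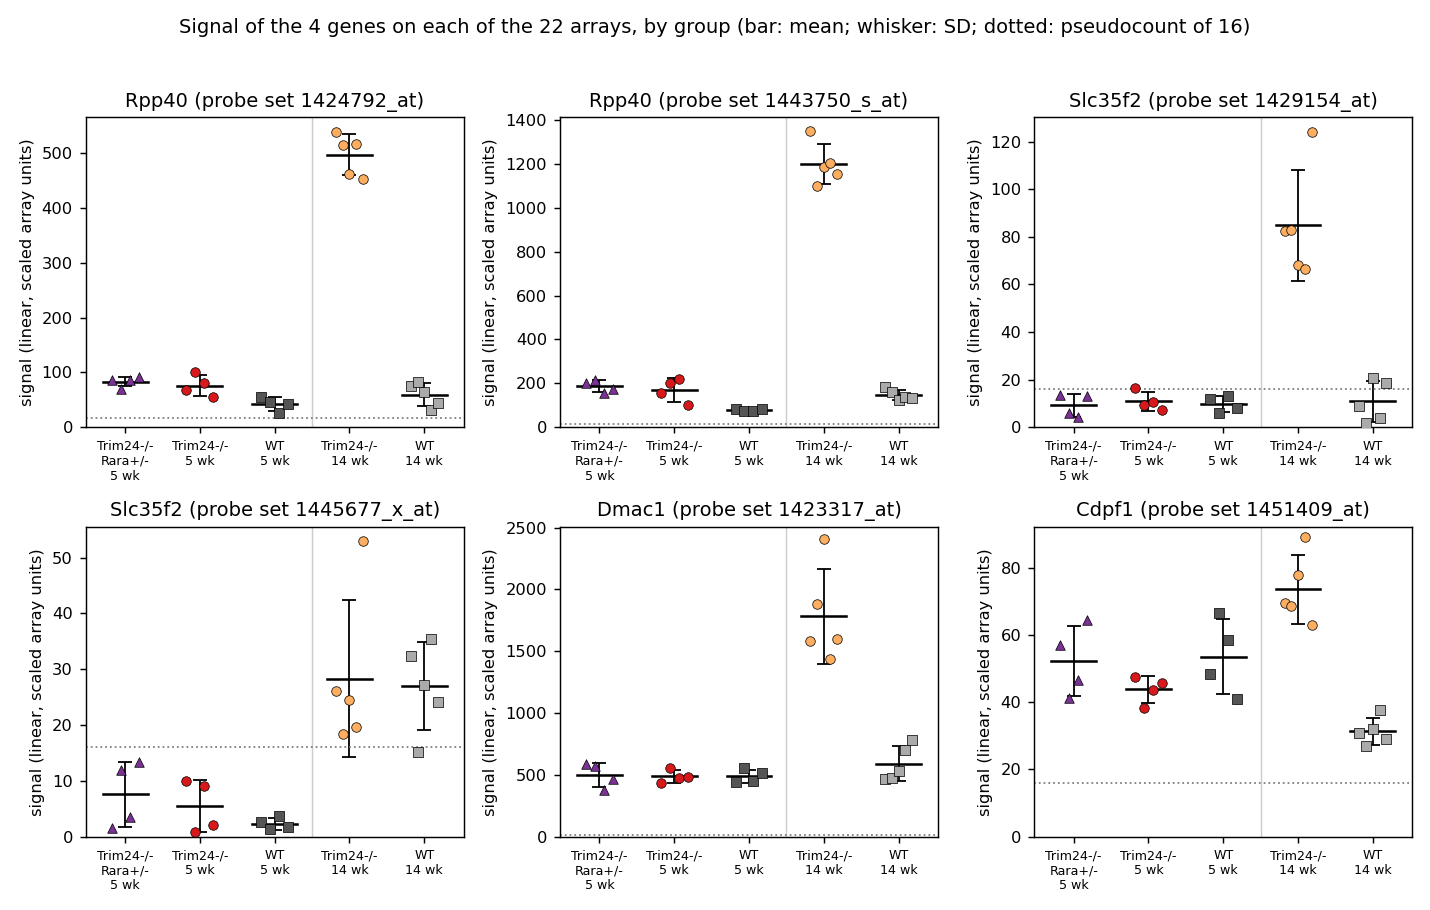
Signal (linear, scaled array units) of each probe set of the 4 genes, with 1 point per mouse liver, a bar at the group mean, a whisker of 1 SD and a dotted line at 16, the value added before taking logs. At 14 weeks the 5 Trim24-/- points lie above all WT points for both probe sets of Rpp40, for 1429154_at of Slc35f2, for Dmac1 and for Cdpf1, whereas they overlap for 1445677_x_at of Slc35f2.

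Slc35f2 is measured by a pair of probe sets that gave different pictures at 14 weeks. The brighter by its mean over all 22 arrays, 1429154_at, averaged below 16 in every group except Trim24-/- at 14 weeks. That mean, by which it stands for the gene, includes the group where it was high. In WT livers at 14 weeks 1445677_x_at was the brighter, averaging 26.9 against 10.8. Probe set 1429154_at read 82.2, 83.0, 68.1, 66.6 and 124 in Trim24-/- livers at 14 weeks. It read 8.79, 1.88, 20.7, 4.03 and 18.8 in WT livers of that age, 3 of them below 16. The groups did not overlap, and 1 Trim24-/- animal, at 124, stood above the other 4. The log2 difference was 1.94 ± 0.22, ninth among all genes, between Slc10a2 at 1.97 and Cdkn1a at 1.91. No fold change is given, since the WT mean of 10.8 ± 8.51 lies below the 16 added before taking logs.

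At 5 weeks 1429154_at read 13.5, 6.05, 4.19 and 13.0 in Trim24-/- Rara+/- livers. It read 16.3, 9.14, 10.5 and 7.28 in Trim24-/- and 11.8, 5.84, 13.2 and 7.85 in WT livers. All 3 groups overlapped, and 11 of the 12 livers read below 16, so a difference among them may not be detectable at this brightness. The log2 difference of Trim24-/- from WT was 0.06 ± 0.16 at 5 weeks, and the 14-week difference exceeded it by 1.88 ± 0.28.

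The other Slc35f2 probe set, 1445677_x_at, did not follow this pattern. The suffix _x_at marks, on these arrays, probe sets whose probes may also bind other transcripts. It read 26.1, 18.4, 24.4, 19.7 and 52.9 in Trim24-/- and 32.4, 15.2, 27.2, 35.5 and 24.2 in WT livers at 14 weeks. The groups overlapped throughout, and only that animal, at 52.9, exceeded the WT mean of 26.9. Its log2 difference was 0.02 ± 0.20 at 14 weeks, and the difference at 14 weeks minus that at 5 weeks was -0.19 ± 0.28. At 5 weeks it read 1.58, 11.9, 3.57 and 13.3 in Trim24-/- Rara+/-, 10.004, 0.903, 9.14 and 2.10 in Trim24-/- and 2.57, 1.32, 3.72 and 1.65 in WT livers, all below 16. The higher Slc35f2 signal in Trim24-/- livers rests on 1 of its 2 probe sets, and averaging the log2 values of both gave a 14-week difference of 0.98.

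**Figure D2:**
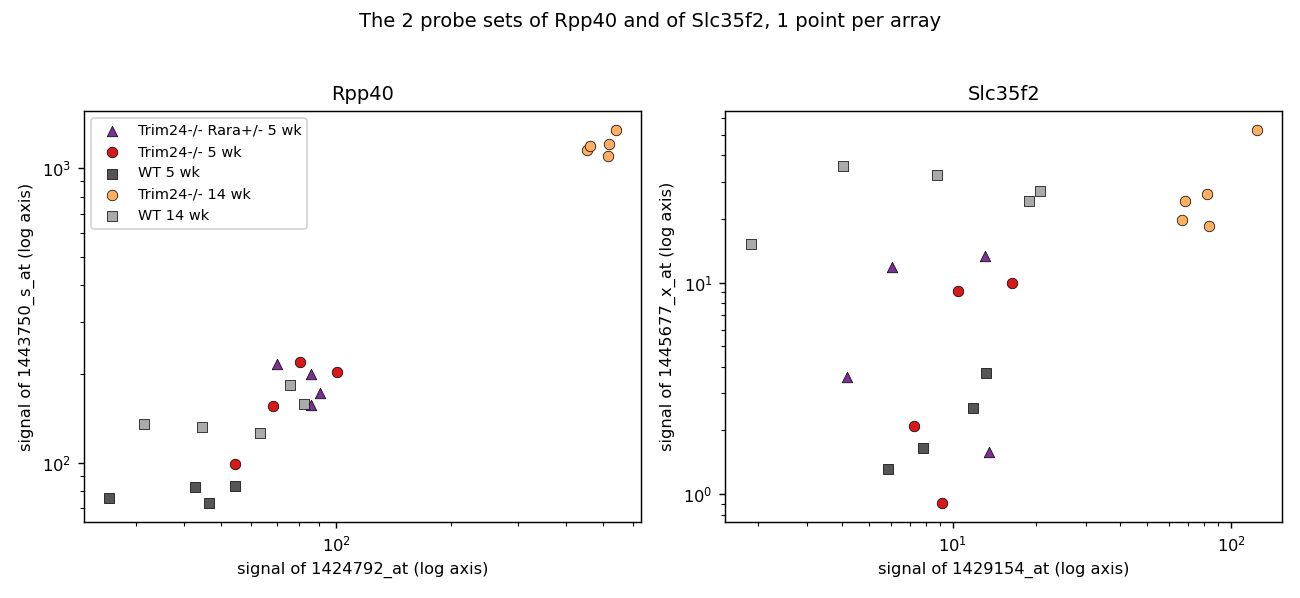
Signal of 1 probe set against the other of the same gene on log axes, with 1 point per array, for Rpp40 and Slc35f2. The 5 Trim24-/- arrays at 14 weeks stand apart along both axes for Rpp40, whereas for Slc35f2 they stand apart along the axis of 1429154_at (66.6 to 124) but not along that of 1445677_x_at (18.4 to 52.9 against 15.2 to 35.5 in WT).

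Dmac1 was higher in Trim24-/- than in WT livers at 14 weeks, while its 3 groups at 5 weeks overlapped. Its probe set, 1423317_at, read 1584, 1879, 2403, 1438 and 1598 in Trim24-/- livers at 14 weeks. It read 467, 471, 535, 699.6 and 784 in WT livers of that age. The lowest Trim24-/- liver was well above the highest WT liver, and both groups were more spread than the Trim24-/- and WT groups at 5 weeks. The means of 1781 ± 383 in Trim24-/- and 591 ± 143 in WT livers stood in a ratio of 3.01, with a log2 difference of 1.57 ± 0.18 that ranked 16 among all genes, between Phlda3 at 1.58 and Cish at 1.54. At 5 weeks the signals were 588, 568, 376 and 467 in Trim24-/- Rara+/-, 432, 559, 473 and 484 in Trim24-/- and 442, 552, 449 and 514 in WT livers. All groups overlapped, and the log2 difference of Trim24-/- from WT was -0.01 ± 0.14. The difference at 14 weeks exceeded that at 5 weeks by 1.58 ± 0.24.

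Cdpf1 had the smallest 14-week difference of the 4 genes. Its probe set, 1451409_at, read 69.6, 68.7, 77.9, 89.1 and 62.9 in Trim24-/- and 30.8, 27.0, 31.9, 37.8 and 29.2 in WT livers at 14 weeks. The groups did not overlap. The ratio of means was 2.35 and the log2 difference 0.92 ± 0.11, which ranked 68 among all genes, between Akr1c19 at 0.92 and Tmem45b at 0.90. At 5 weeks it read 57.0, 41.3, 46.7 and 64.4 in Trim24-/- Rara+/-, 47.6, 38.4, 43.8 and 45.6 in Trim24-/- and 48.3, 66.5, 58.7 and 41.0 in WT livers. The groups overlapped, yet all 4 Trim24-/- livers read below the WT mean of 53.6. The log2 difference of Trim24-/- from WT was -0.21 ± 0.14, given with no test. The difference at 14 weeks exceeded that at 5 weeks by 1.12 ± 0.17. The highest WT signal at 14 weeks, 37.8, was under the lowest WT signal at 5 weeks, 41.0, although the median signal of the arrays was higher at 14 weeks.

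**Figure D3:**
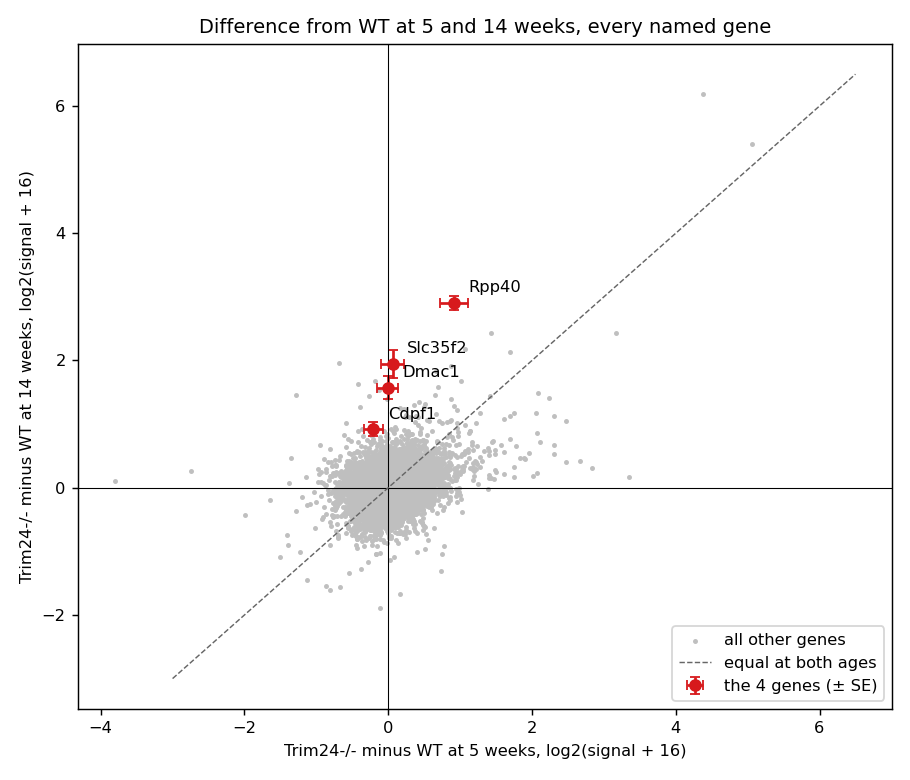
Log2 difference of Trim24-/- from WT livers at 14 weeks against that at 5 weeks, 1 point per gene, with SE bars for the 4 genes and a dashed line where both ages are equal. Of the 4, Rpp40 (0.92 at 5 weeks, 2.90 at 14 weeks) lies furthest right on the 5-week axis. Slc35f2 (0.06, 1.94), Dmac1 (-0.01, 1.57) and Cdpf1 (-0.21, 0.92) follow in that order. All 4 lie above the line, and these positions are described with no test.

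By mean signal of the brighter probe set, the groups of Rpp40 ran from Trim24-/- at 14 weeks, through Trim24-/- Rara+/- and Trim24-/- at 5 weeks, to WT at 14 and at 5 weeks. The Trim24-/- Rara+/-, Trim24-/- (5 weeks) and WT (14 weeks) groups overlapped with their neighbours, and the other steps did not overlap. For Slc35f2 (1429154_at) and Dmac1 the Trim24-/- livers at 14 weeks came first, and the other 4 groups overlapped. For Cdpf1 the Trim24-/- livers at 14 weeks overlapped with Trim24-/- Rara+/- and WT livers of 5 weeks, and the WT livers at 14 weeks came last. By the probe set standing for each gene, all 4 genes showed no overlap with the mutant group higher in Trim24-/- against WT at 14 weeks. This was shown by 1.07% of all genes in that comparison. At 5 weeks Rpp40 was, by that probe set, the only 1 of the 4 whose Trim24-/- group lay wholly above WT, as did 3.0% of all genes. The groups overlapped for 1445677_x_at of Slc35f2 at 14 weeks and for 1424792_at of Rpp40 at 5 weeks. Since the 4 genes were picked on these comparisons, nothing is read from those counts.

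The Trim24-/- Rara+/- arrays were not used to pick the genes, so their differences were tested with limma across all 18194 genes, with Benjamini-Hochberg adjustment. These tests share the WT arrays, or the Trim24-/- arrays, with the values that chose the genes. Against WT, none of the 4 genes passed an adjusted p of 0.05, where 10 genes or 0.0550% of all genes did (1353 at an unadjusted p under that level). Rpp40 came closest, with a log2 difference of 1.09 ± 0.19 (95% interval 0.67 to 1.5, higher in 4 of 4 livers than every WT liver) and an adjusted p = 0.0874 by limma. Its groups did not overlap, as was so with the first group higher for 1.98% of all genes. The limma adjusted p of Rpp40 ran from 0.00296 to 0.967 over 26 other ways of processing and passed in 6 of them, while the difference stayed between 0.81 and 1.23. The second Rpp40 probe set differed by 0.79 ± 0.18 with a limma adjusted p of 0.277 over all probe sets.

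Of the other genes, Slc35f2 (1429154_at) differed between Trim24-/- Rara+/- and WT livers by -0.04 ± 0.16 (95% interval -0.37 to 0.30, limma adjusted p = 0.980). Dmac1 differed by 0.02 ± 0.14 (-0.30 to 0.33, limma adjusted p = 0.992). Cdpf1 differed by -0.02 ± 0.14 (-0.32 to 0.27, limma adjusted p = 0.986). The interval of Slc35f2 says little, since all 8 livers compared read below 16, where adding 16 shrinks any difference. The second Slc35f2 probe set differed by 0.33 ± 0.19, with a limma adjusted p of 0.823 over all probe sets.

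Removing 1 Rara allele from Trim24-/- mice was the second question these arrays address. None of the 4 genes passed in Trim24-/- Rara+/- against Trim24-/- livers at 5 weeks, where 26 genes or 0.143% of all genes passed and 2089 had an unadjusted p under 0.05. Rpp40 differed by 0.17 ± 0.19 (95% interval -0.24 to 0.59, limma adjusted p = 0.805) and Cdpf1 by 0.18 ± 0.14 (-0.12 to 0.48, limma adjusted p = 0.683). Slc35f2 differed by -0.10 ± 0.16 (-0.43 to 0.24, limma adjusted p = 0.878) and Dmac1 by 0.02 ± 0.14 (-0.29 to 0.33, limma adjusted p = 0.983). For Rpp40 the Trim24-/- Rara+/- and Trim24-/- means were 187 ± 27.0 and 169 ± 54.1, against 78.7 ± 5.16 in WT livers, so both mutant groups lay above WT with no difference shown between them. Of 12 measured interferon-stimulated genes, the response in the title of the series, 6 were called lower in the same comparison, with a list median of -1.74 against -0.01 over all genes. No gene at all was called in that comparison without Trim24-/- animal 8, without any one of Trim24-/- Rara+/- animals 54, 66 and 82, or with a pseudocount of 1, so those 6 calls were then lost.

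At 14 weeks 44 genes or 0.242% of all genes passed in Trim24-/- against WT livers, 33 higher and 11 lower, and at 5 weeks 109 or 0.599% passed, 86 higher and 23 lower. At an unadjusted limma p under 0.05 there were 1498 genes at 14 weeks, 8.23% of all. None of the genes listed as partners or relatives of Rpp40, Slc35f2 and Dmac1 passed an adjusted p of 0.05 in Trim24-/- against WT livers at either age. Of the other RNase P and RNase MRP genes, 9 of 12 were measured, and their 14-week median was -0.01 against 0.00 over all genes. They ran from -0.13 for Rpp21, a protein subunit, to 0.61 for Pop1, the largest protein subunit, which was dim at 31.9 ± 5.44 in Trim24-/- and 17.3 ± 12.8 in WT livers, and 1 of the 9 had an unadjusted limma p under 0.05, where 8.23% of all genes did. Of 14 other genes listed for tRNA processing and export, 13 were measured, with a median of 0.04. Their range was -0.35 for Hsd17b10, a subunit of the mitochondrial RNase P, to 0.18 for Trnt1, which adds CCA to tRNA ends. Rpp40, which was picked on these values, stood at 2.90, where the next measured subunit of its enzymes stood at 0.61.

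Of the other SLC35 transporters, a family that includes carriers of nucleotide sugars into the Golgi and endoplasmic reticulum, 25 of 26 were measured. Their 14-week median was 0.09, from -0.44 for Slc35g3 to 0.31 for Slc35e4, and 2 of the 25 had an unadjusted limma p under 0.05 (8.23% of all genes). The 2 subunits of the enzyme that puts queuine into tRNA differed by -0.20 for Qtrt1 and 0.37 for Qtrt2, neither called. Of the other complex I assembly factors, 18 of 19 were measured, with a median of -0.03 and 3 of the 18 at an unadjusted limma p under 0.05 (8.23% of all genes). They ran from -0.43 for Ndufaf3, at 144 ± 23.7 in Trim24-/- and 199 ± 27.6 in WT livers, to 0.36 for Tmem186. Of the listed subunits of the whole membrane arm, whose distal part Dmac1 helps to build, 20 of 21 were measured. They had a median of -0.09, a range of -0.30 for Ndufb2 to 0.06 for Ndufc1 and 1 of the 20 at an unadjusted limma p under 0.05. At 5 weeks none of these lists had a called gene in any of the 3 comparisons.

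**Figure D4:**
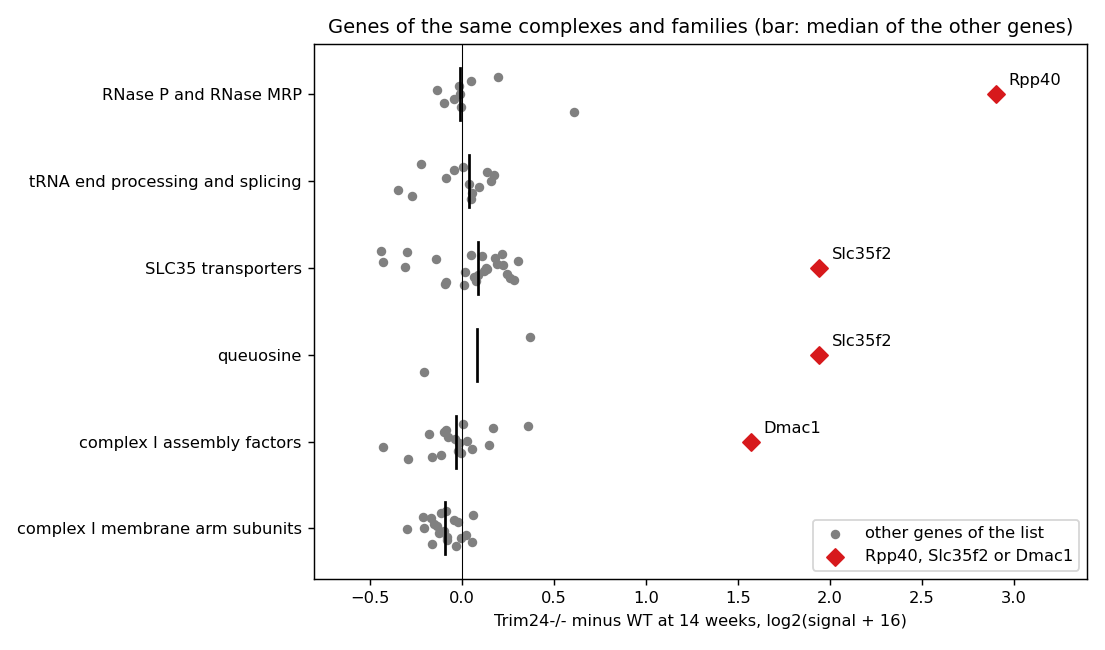
Log2 difference of Trim24-/- from WT livers at 14 weeks for the genes of the same complexes and families, with a bar at the median of the other genes of each list and diamonds for Rpp40, Slc35f2 and Dmac1. The other genes lie between -0.44 and 0.61, whereas Rpp40 lies at 2.90, Slc35f2 at 1.94 and Dmac1 at 1.57.

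The genes next to the 4 on their chromosomes were examined for differences of their own. With 3 measured genes on each side, there were 24 neighbours, and none was called by limma in Trim24-/- against WT livers at 14 or at 5 weeks. At 14 weeks 2 of the 24 had an unadjusted limma p under 0.05, where 8.23% of all genes did, both dim: 1700011B04Rik beside Rpp40 at 0.40 and Tyrp1 beside Dmac1 at -0.38. The median of the 24 was -0.03 and the range -0.72 for Ppp1r3g, a glycogen-binding phosphatase subunit beside Rpp40 that varied widely, to 0.45 for Lncppara beside Cdpf1. Ppara, the fatty acid sensing nuclear receptor whose gene is next to Cdpf1 in order on 1 side, averaged 763 ± 98.8 in Trim24-/- and 890 ± 111 in WT livers at 14 weeks, a difference of -0.22 ± 0.13 with a limma adjusted p of 0.710.

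**Figure D5:**
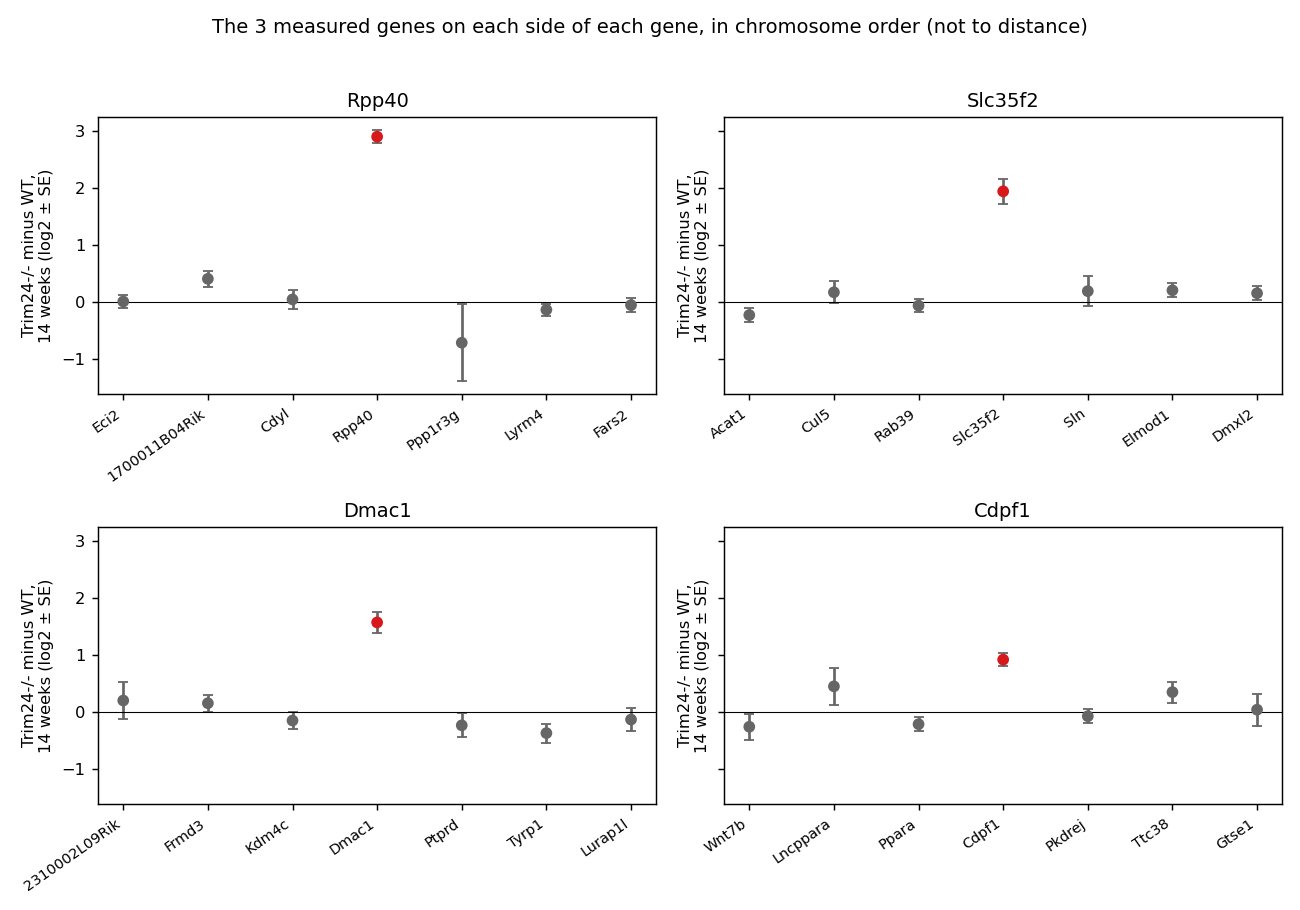
Log2 difference of Trim24-/- from WT livers at 14 weeks, with SE, for each of the 4 genes (red) and the 3 measured genes on each side in chromosome order, not to distance. The 24 neighbours lie between -0.72 and 0.45, while the 4 genes lie at 2.90, 1.94, 1.57 and 0.92.

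The genes whose pattern was most like each of the 4 were found by Pearson correlation over the 22 arrays of log2(signal + 16) minus the mean of the WT arrays of the same age, among 8334 genes with a mean above 6. Slc35f2 itself was too dim to be among the genes searched, and its r was 0.899 with Dmac1, 0.867 with Cdpf1 and 0.848 with Rpp40. For Rpp40 they were Resf1 at r = 0.931, Zmpste24 at 0.930 and Cfap53 at 0.862. Resf1, a retroelement silencing factor, differed by 2.43 at 14 weeks and by 1.43 at 5 weeks in Trim24-/- against WT livers, and by 1.4 in Trim24-/- Rara+/- against WT livers. Zmpste24, the protease that trims prelamin A, differed by 0.69 at 14 weeks. For Slc35f2 the 3 most alike genes were the other 3, Dmac1, Cdpf1 and Rpp40. For Dmac1 they were Cdpf1 at 0.880, the RNA-binding zinc finger gene Zmat3 at 0.867 and the cyclin G1 gene Ccng1 at 0.861, and the last pair differed by 0.78 and 1.11 at 14 weeks. For Cdpf1 they were Dmac1 at 0.880, the glutathione transferase gene Gstm4 at 0.855 and the liver transcription factor gene Foxa2 at 0.809, and the last pair differed by 0.31 and 0.92. These values describe the same 22 arrays that picked the genes. The arrays are shared between all genes, and the 5 Trim24-/- arrays at 14 weeks, above the WT mean for all 4 genes, enter every r.

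Markers of other liver cells moved with the 14-week groups to differing extents. All 12 macrophage markers were higher on average in Trim24-/- livers, against 50.3% of all genes, with a median log2 difference of 0.44. Of the 12, 7 had an unadjusted limma p under 0.05, where 8.23% of all genes did, and none was called. Their summed signal was 4297 to 8104 in Trim24-/- and 3622 to 4757 in WT livers. The 8 hepatocyte markers had a median of -0.14 and none was higher on average in Trim24-/- livers, with 1 at an unadjusted limma p under 0.05. They had summed signals of 48248 to 64537 in Trim24-/- and 50090 to 75351 in WT livers. The summed signals also overlapped for 8 endothelial markers (2020 to 2257 in Trim24-/- and 1920 to 2228 in WT livers) and 8 stellate cell markers (3372 to 4282 and 2641 to 4075). The same held for 5 cholangiocyte markers (63.0 to 145 in Trim24-/- and 51.5 to 167 in WT livers), 8 lymphocyte markers (144 to 197 and 139 to 168) and 3 erythroid markers (1022 to 1147 and 712 to 1213). Of these 5 lists, 5 of 8 endothelial, 5 of 8 stellate, 3 of 5 cholangiocyte, 6 of 8 lymphocyte and 3 of 3 erythroid markers were higher on average in Trim24-/- livers. Unadjusted limma p was under 0.05 for 1 endothelial and 3 stellate cell markers and for none of the other 3 lists, and no marker of any list was called at 14 weeks. Of those 3 stellate cell markers, Dcn and Pdgfrb were higher in Trim24-/- livers, at 0.33 and 0.42, and Des was lower, at -0.57. The lymphocyte markers Cd3e, Cd3g and Cd4 averaged below 16 in both groups. The part of macrophages or other cells in the signals of Rpp40, Slc35f2, Dmac1 and Cdpf1 was not tested, and in whole liver more cells of a type and more RNA per cell cannot be told apart. Of 11 measured cell cycle genes none was called at 14 weeks, with a median of 0.21 and 3 of the 11 at an unadjusted limma p under 0.05 (8.23% of all genes). Of those 3, Cdk1 and Plk1 were higher in Trim24-/- livers, at 0.62 and 0.56, and Bub1 was lower, at -0.33.

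The interferon-stimulated genes are given for both ages beside the 4 genes, with no test between the lists. In Trim24-/- against WT livers at 5 weeks all 12 were higher on average, against 47.9% of all genes, with a median of 2.01. Of the 12, 9 were called, where 0.599% of all genes were. At 14 weeks all 12 were again higher on average, against 50.3% of all genes, with a median of 0.60. An unadjusted limma p was under 0.05 for 10 of the 12 (8.23% of all genes). Only 1, Usp18, was called (1.17, limma adjusted p = 0.0469), where 0.242% of all genes were. The count of calls over all genes at 5 weeks depended on single arrays, running from 12 to 137 when 1 array was left out. Which of the 9 calls remained in those fits was not examined. The 14-week minus 5-week difference had a median of -1.15 over these 12 genes, with none called and 8 of the 12 at an unadjusted limma p under 0.05 (6.39% of all genes). It lay between 1.12 and 1.99 for the brighter probe sets of the 4 genes. For the other probe sets it was 2.16 for Rpp40 and -0.19 for Slc35f2. The 4 genes were picked on this difference, so nothing is read from the contrast with the list.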

How the data were processed

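Per the labels' protocols, livers were frozen, total RNA was purified on columns, and biotin-labelled probes were made by 2 rounds of amplification. The authors deposited linear intensity values for 45101 probe sets on 22 arrays, already scaled to a common trimmed mean; the sources used here do not name the software. Groups came from the labels alone. In the platform annotation 34958 probe sets carry a single symbol and 932 more than 1, which named no gene, and 9211 are missing from it. The brightest probe set over all arrays stood for each of 18194 genes, 9012 of which have several.

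The log2(signal + 16) values were fitted with limma 3.58.1 (lmFit, eBayes) under R 4.3.3 and data.table (version 1.17.8), with Benjamini-Hochberg adjustment over all genes and a call at an adjusted p under 0.05. One model of the 12 arrays at 5 weeks gave that age's 3 comparisons, one of 10 arrays that at 14 weeks, and one of all 22 the difference between ages. Each fit was also run on simulated data. Python 3.11.15 with pandas 2.3.3, numpy 2.4.6 and matplotlib 3.10.9 made the summaries and plots. Named genes followed a rule: the 4 genes with every probe set, Trim24, Rara, Xist and Eif2s3y, up to 3 called genes of a list, the 3 most alike genes and the 3 measured neighbours on each side of each gene, and genes next in rank. The genes at the ends of a list's range, Ppara, Plk1, Dcn, Pdgfrb and the dim lymphocyte markers were named after their values were seen. The 4 genes, the lists and the alternatives were chosen with earlier results of these data known. The number of arrays limits the precision. Correlations between arrays of a group, over 8334 genes, were 0.948 to 0.992, and no 2 arrays were identical.

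Alternatives were pseudocounts of 1 and 64, above-median genes only, quantile normalisation, centring, the mean of all probe sets or each on its own, a variance trend, array weights, other arrays in the fit, each array left out, and arrays that an earlier look at these data singled out being left out or averaged. RefSeq on GRCm38.p6 gave the promoter windows and the order of neighbouring genes.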

Additional observations from a re-analysis of the deposited data

Results flagged for a closer look

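A single Trim24-/- mouse at 14 weeks stood far above the other 4 of its group for both probe sets of Slc35f2, at 124 for 1429154_at and 52.9 for 1445677_x_at. Of 30 groups of values examined for such single arrays, 2 were marked, both of them these, and chance marks about 1 group in 20. Both marks come from the same animal and gene and are not independent. Without this animal the 14-week difference of 1429154_at was 1.82, and it was 1.94 with it.

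For Cdpf1 all 4 Trim24-/- livers at 5 weeks read below the WT mean and all 5 at 14 weeks above it. The 14-week difference exceeded the 5-week difference by 1.12 on the log2 scale. That difference was not tested, because the gene was picked on it.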

How the results depend on the processing

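For Trim24-/- Rara+/- against WT, the count of called genes was 10. It was 19 with above-median genes only and 19 with centring, 18 with array weights, 23 with only the compared groups and 31 with all 22 arrays in the fit, 28 with Trim24-/- animal 6 and WT animal 90 both left out, 5 with animals 54, 66 and 82 (Trim24-/- Rara+/-) averaged, 6 with animals 1 and 8 (Trim24-/-) averaged, and 6 to 22 with each replicate left out. For Trim24-/- Rara+/- against Trim24-/- it was 26, and under those settings in turn 102, 13, 325, 5, 101, 51, 0 and 5, with 0 to 101 for left-out replicates. It was 0 with a pseudocount of 1, 55 with one of 64, 17 with quantile normalisation and 52 with a variance trend. For Trim24-/- against WT at 5 weeks it was 109, and 34 with a pseudocount of 1, 19 with only the compared groups, 28 with animals 54, 66 and 82 averaged, 21 with animals 1 and 8 averaged, and 12 to 137 for left-out replicates. At 14 weeks it was 44, and 28 with a pseudocount of 1, 74 with above-median genes, 94 with all 22 arrays, and 28 to 39 for left-out replicates. For the difference between ages it was 6, and 5 to 11 for left-out replicates. The causes were not tested.

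For Rpp40, Trim24-/- Rara+/- against WT passed with above-median genes (limma adjusted p = 0.0412), centring (0.0378), array weights (0.0439), only the compared groups (0.00828), all 22 arrays (0.00296) and without Trim24-/- animal 37 (0.00498). No other gene of the 4 passed against WT or Trim24-/- under any alternative. At 14 weeks no sign turned: Rpp40 ran from 2.58 to 3.03, Slc35f2 from 0.98 (mean of both probe sets) to 3.21 (pseudocount of 1), Dmac1 from 1.46 to 1.68 and Cdpf1 from 0.53 (pseudocount of 64) to 1.20 (pseudocount of 1). Slc35f2 was too dim for the above-median set. No paired analysis was possible because the groups share no replicate numbers.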
